A study of Mus musculus with 9 samples.

Results

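Fatty acid oxidation genes were followed in mouse primary renal tubular epithelial cells. The set held 9 genes, Ppara, Cpt1a, Cpt2, Acadm, Acadl, Acadvl, Hadha, Hadhb and Ehhadh, and each was found by its symbol as 1 row among the 31167 genes of the deposited table. RNA sequencing had been done on 9 libraries from cells of C57BL/6 kidney, in 3 groups with 3 libraries each. Sham cells were the control, H/R cells were kept in glucose-free medium at 1.0% oxygen for 6 h (hypoxia) and in complete medium with normal oxygen for 18 h (reoxygenation), and EGR1OV cells were transfected with a plasmid that overexpresses Egr1 from a CMV promoter, which is active in most cell types. H/R therefore differed from Sham in glucose as well as in oxygen, and the effects of these cannot be told apart here. Sham cells were untreated, so EGR1OV differed from Sham in transfection and plasmid DNA as well as in Egr1, and these cannot be told apart either. The labels do not say whether the replicates of a group were separate cultures or animals, so p-values measure the spread between these libraries, which may be technical.

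Fatty acid oxidation is the main source of ATP in the proximal tubule of the kidney. Long-chain fatty acids enter mitochondria as carnitine esters through the carnitine shuttle, of which Cpt1a is the gate, and are then shortened by cycles of dehydrogenation, hydration, a second dehydrogenation and thiolysis. Ppara, a nuclear receptor that binds DNA together with a retinoid X receptor, drives transcription of many of these enzymes, and a peroxisomal branch that includes Ehhadh handles very long-chain and dicarboxylic acids.

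Libraries held 16183617 to 18384022 reads, recovered from the values. Egr1 was at 6.09 to 6.91 FPKM (fragments per exon kilobase and library size) in Sham libraries, 7.48 to 8.57 in those of H/R and 40.1 to 45.7 in those of EGR1OV, as the labels imply. Of 8 epithelial and tubule markers tested, Cdh1 was between 86.0 and 103 FPKM and Pax8 between 11.8 and 13.7 in every library. Epcam was called higher (limma adjusted p under 0.05 and at least 1.3-fold) in EGR1OV than in Sham (76.2 to 100.4 FPKM), a call lost when libraries were rescaled by median ratios or by quantile normalization, and it was also called higher after H/R at the 1.2-fold threshold used there (0.33 on the log2(FPKM + 1) scale). In EGR1OV against Sham the keratins Krt8 (1014 to 618 FPKM), Krt18 (685 to 412) and Krt19 (83.3 to 43.7) were called lower, as was Cdh16 after quantile normalization alone (-0.38). Against H/R these keratins and Cdh16 (26.4 to 19.6 FPKM, -0.41) were called lower as deposited and with both other scalings. Pax2 was called higher than in H/R (14.3 to 19.1 FPKM, 0.39), a call lost with either other scaling. The summed level of the list was 1973 to 2013 FPKM over the Sham libraries, 1828 to 1912 over those of H/R and 1273 to 1380 over those of EGR1OV, and its part in the results below was not tested. Defining transporters of the proximal tubule were barely detected, as Slc34a1, Slc5a2, Slc5a12, Slc22a6 and Slc13a3 stayed at or under 0.0845 FPKM in every library. The summed level of 10 leukocyte markers was 148 to 152 FPKM in Sham libraries, 124 to 134 in those of H/R and 23.6 to 28.8 in those of EGR1OV, and of the 8 markers tested 8 were called lower in EGR1OV than in Sham. Of its defining markers Ptprc was at 0.435 to 0.495 FPKM in Sham and 0.134 to 0.158 in EGR1OV. Most members are expressed in many cell types, leukocytes included, and the part of these cells in any result below was not tested. In bulk RNA, fewer cells of a type and less RNA per cell cannot be told apart. The summed level of 7 adipocyte markers, another cell type rich in fatty acid enzymes, was at most 0.461 FPKM. The small RNA gene Gm23935 took 0.541% to 7.34% of the FPKM sum of a library, with 3.27% or more in 1 Sham, 2 H/R and 1 EGR1OV library.

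Short stretches of promoter sequence are shown for Cpt1a, the called member, for Acadm, with the largest negative difference in EGR1OV against Sham, and for the neighbours Hadha and Hadhb, whose EGR1OV values lay on opposite sides of Sham as deposited. They come from RefSeq promoter windows of mouse build GRCm38.p6, in which all 9 members had an entry. Capitals mark GGGCGG (a GC box, bound by Sp1), AGGTCA (the core site of nuclear receptors such as Ppara) and GCGTGGGCG (a sequence that Egr1 binds), each on either strand. The first is the 250 bases before the RefSeq start of Cpt1a, chr19:3323051-3323300 on the plus strand. The second is the 250 bases before the start of Acadm, chr3:153944644-153944893 on the minus strand. The third is the 85 bases between the facing ends of Hadha and Hadhb in GENCODE M21, which are transcribed away from each other, chr5:30155163-30155247 on the plus strand. The last is a 30-base stretch in the first exon of Hadhb around a match to GCGTGGGCG, chr5:30155262-30155291 on the plus strand.
Cpt1a: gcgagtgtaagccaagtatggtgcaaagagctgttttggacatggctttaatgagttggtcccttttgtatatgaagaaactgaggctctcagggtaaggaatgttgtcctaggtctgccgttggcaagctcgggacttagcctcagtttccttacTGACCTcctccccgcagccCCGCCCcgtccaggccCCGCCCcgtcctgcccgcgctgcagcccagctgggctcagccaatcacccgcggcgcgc
Acadm: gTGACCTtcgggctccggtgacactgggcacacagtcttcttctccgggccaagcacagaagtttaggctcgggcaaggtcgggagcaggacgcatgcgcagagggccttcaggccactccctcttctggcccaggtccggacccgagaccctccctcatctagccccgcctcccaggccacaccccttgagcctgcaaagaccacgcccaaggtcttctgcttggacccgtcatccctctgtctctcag
Hadha to Hadhb: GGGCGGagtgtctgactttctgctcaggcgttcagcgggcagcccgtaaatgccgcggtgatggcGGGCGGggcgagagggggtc
Hadhb exon: gCCGCCCctcgGCGTGGGCGGacgtttgtc

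The 9-base sequence GCGTGGGCG was in 1 of the 9 members' windows, that of Hadhb, and in 0.612% of 32851 windows. Its last bases overlap a GC box. GCGGGGGCG, another sequence that Egr1 binds, was in 0 of 9 members' windows and in 2.91% of all. AGGTCA was in the windows of Cpt1a, Acadm and Acadvl and in 16.3% of all. A direct repeat of AGGTCA with 1 base between the copies, the element that Ppara and a retinoid X receptor share, was in 0 of 9 members' windows and in 0.0396% of all. GGGCGG was in 7 of 9 members' windows and in 35.7% of all, while CCAAT was in those of Cpt1a and Ehhadh and in 37.4% of all. CpG pairs numbered 9 (Acadvl) to 34 (Acadl) per window, against a median of 7 over all windows. A match describes these letters and is not a binding site.

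Changes were small for the whole set. A gene was called when its limma adjusted p (Benjamini-Hochberg over 13985 genes) was under 0.05 and it changed by at least 1.2-fold after H/R or 1.3-fold in EGR1OV. Of the 9 members, 8 were tested and Ppara was below the filter of 0.5 FPKM. After H/R 1 member, Cpt1a, was called lower and 0 were called higher, against 2.65% lower and 1.6% higher among all genes tested. In EGR1OV 0 members were called against Sham, where 9.87% of all genes were called higher and 6.51% lower. Between EGR1OV and H/R 1 member, Cpt1a again, was called higher in EGR1OV and 0 were called lower, against 11.9% and 6.94% of all genes. The direction of calls over all genes depended on scaling. After H/R 37.7% of calls were higher as deposited and 57.9% after median-ratio scaling, and for EGR1OV the share fell from 60.3% to 45.9% against Sham and from 63.2% to 42.5% against H/R after quantile normalization.

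By adjusted p alone, 0 members were higher and 2 lower after H/R (Cpt1a and Acadm), against 4.15% and 7.54% of all genes. In EGR1OV against Sham 1 was higher (Cpt1a) and 2 were lower (Acadm and Hadhb), against 26.1% and 19.8% of all genes. In EGR1OV against H/R 4 were higher (Cpt1a, Cpt2, Acadl and Hadha) and 2 lower (Acadm and Hadhb), against 32% and 19% of all genes. The median change of the 8 tested members on the log2(FPKM + 1) scale was -0.08 after H/R, 0.08 in EGR1OV against Sham and 0.12 in EGR1OV against H/R. Over all genes tested the medians were -0.03, 0.02 and 0.05. After H/R 7 of 8 members had a negative change, as did 8373 of the 13985 genes, and with median-ratio scaling or quantile normalization 5 of the 8 had one.

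**Figure D1:**
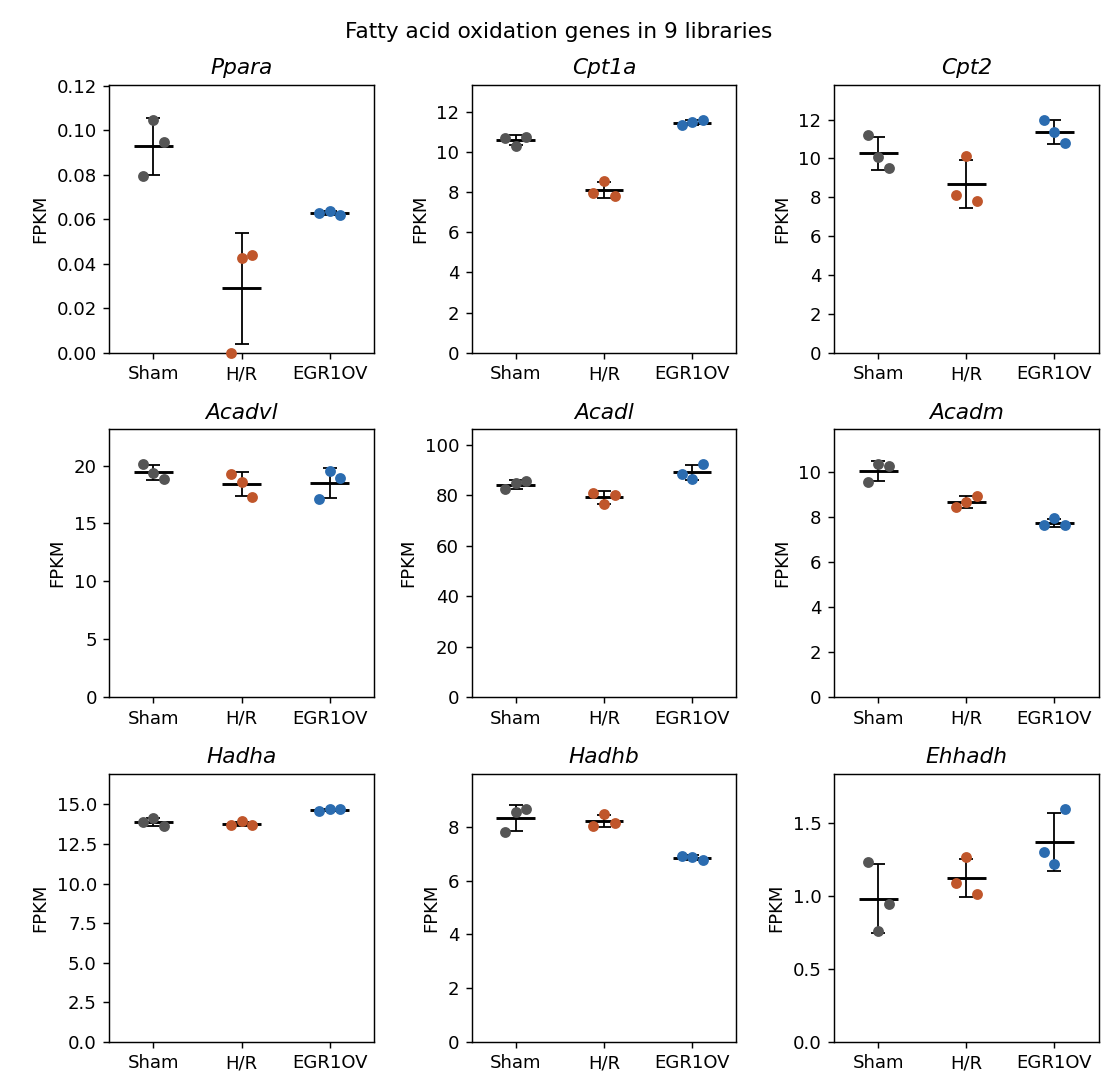
FPKM of the 9 members (vertical axes, each from 0) in the 3 libraries of Sham, H/R and EGR1OV; points are libraries, horizontal bars are means and error bars are SD (n = 3). Cpt1a is lowest in all 3 H/R libraries, Acadm and Hadhb are lowest in the 3 EGR1OV libraries, and Ppara stays at or under 0.105 FPKM.

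**Figure D2:**
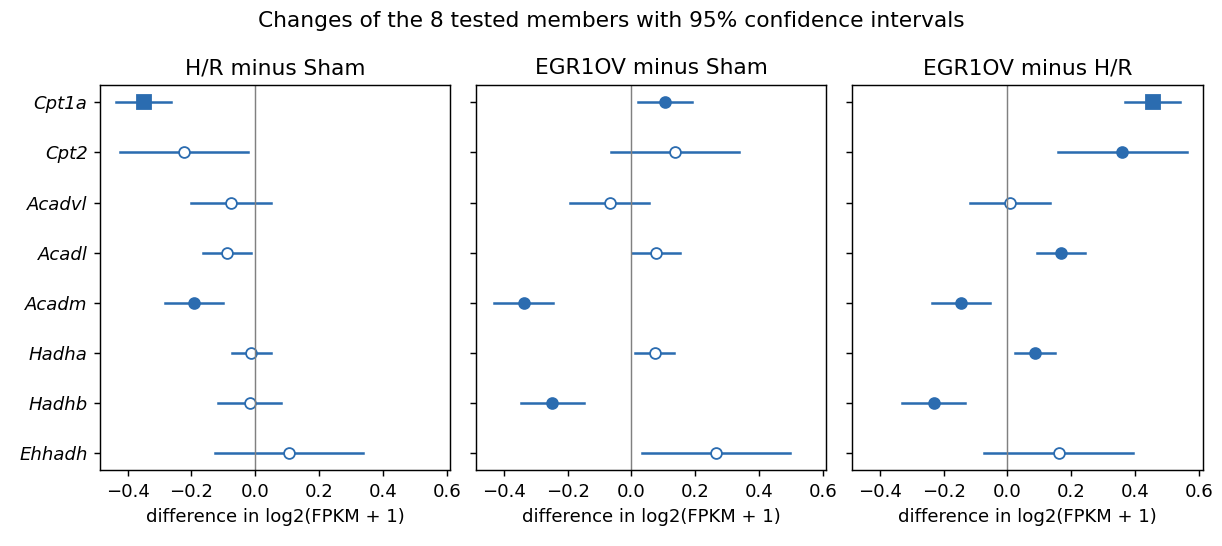
Difference in log2(FPKM + 1) with its 95% confidence interval from limma for the 8 tested members, in 3 comparisons. Filled marks have an adjusted p under 0.05 and squares also pass the fold threshold; only Cpt1a has squares, at -0.35 after H/R and 0.45 in EGR1OV against H/R.

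Levels of the enzymes spanned a wide range in Sham. FPKM is scaled by the exon length used for a gene, so the order given here depends on those lengths. Hadhb, for example, had 2773 reads over 6595 bases in the Sham libraries, and Cpt2 had 1236 over 2391. Acadl was highest at 84.3 FPKM, above 96.5% of the genes tested. Acadvl followed at 19.4 and Hadha at 13.9. Cpt1a (10.6), Cpt2 (10.3) and Acadm (10.1) overlapped in their Sham libraries and their order cannot be given, while Hadhb at 8.34 lay under all 3. Ehhadh was at 0.978 FPKM, above 12.2% of genes tested, and Ppara was lowest. In H/R the ranges of Cpt1a, Cpt2, Acadm and Hadhb all overlapped. In EGR1OV Cpt1a and Cpt2 lay above Acadm, and Acadm above Hadhb, with no overlap.

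Ppara (ENSMUSG00000022383, chromosome 15 from 85734983 to 85802819, plus strand), the transcription factor of the pathway, was barely detected. Its values rest on 5, 7 and 6 reads in the Sham libraries, 0, 3 and 3 reads in H/R and 4, 4 and 4 reads in EGR1OV. These are 0.0793, 0.105 and 0.0948 FPKM in Sham, 0, 0.0425 and 0.0441 in H/R, and 0.0628, 0.0638 and 0.0620 in EGR1OV. The groups did not overlap, but H/R lay at or under the floor of 3 reads, and 18, 6 and 12 reads per group are too few for a fold change. No difference in Ppara was tested across genes, and an exact permutation test (two-sided) gave p = 0.1 in each comparison, the smallest that 3 against 3 libraries allow.

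Cpt1a (ENSMUSG00000024900, chromosome 19 from 3323301 to 3385732, plus strand) encodes the carnitine palmitoyltransferase of the outer mitochondrial membrane, the rate-limiting step of entry, which malonyl-CoA inhibits. It was at 10.7, 10.3 and 10.8 FPKM in Sham, 7.98, 8.54 and 7.80 in H/R, and 11.3, 11.5 and 11.6 in EGR1OV. The 3 groups did not overlap, with H/R lowest and EGR1OV highest. The mean fell from 10.6 ± 0.239 in Sham to 8.11 ± 0.385 in H/R (SD, n = 3 each), a log2(FPKM + 1) difference of -0.35 (SE 0.038, limma adjusted p 0.00114). In EGR1OV it was 11.5 ± 0.140 (SD, n = 3), higher than in H/R by 0.45 (SE 0.038, limma adjusted p 9.9e-06) and 1.42 times its mean. After quantile normalization this difference was 0.31, which is below 1.3-fold. The difference from Sham in EGR1OV was 0.11 (SE 0.038), and its limma adjusted p of 0.0481 was above 0.05 in 14 of 19 alternatives. Each value rests on 555 to 840 reads, and the replicate CV of 1.22% to 4.76% was close to the 3.49% to 4.05% that counting alone gives.

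Cpt2 (ENSMUSG00000028607, chromosome 4 from 107903981 to 107923610, minus strand), which turns acylcarnitines back into acyl-CoA at the inner membrane, spread more widely. It was at 11.2, 10.1 and 9.53 FPKM in Sham, 8.14, 10.1 and 7.81 in H/R, and 11.99, 11.3 and 10.8 in EGR1OV. H/R replicate 2 lay among the Sham libraries and the other H/R libraries lay below them, while EGR1OV lay above all H/R libraries and overlapped Sham. EGR1OV exceeded H/R by 0.36 (SE 0.089, limma adjusted p 0.00781), just under the 1.3-fold threshold. The differences from Sham were -0.22 in H/R (limma adjusted p 0.138) and 0.14 in EGR1OV (limma adjusted p 0.243). Without H/R replicate 2 Cpt2 was called in H/R against Sham, at -0.33 (limma adjusted p 0.0307), and in EGR1OV against H/R, at 0.46.

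The acyl-CoA dehydrogenases carry out the first step of the cycle for chains of falling length. Acadvl (ENSMUSG00000018574, chromosome 11 from 70010183 to 70015411, minus strand), the very long-chain enzyme, was at 20.1, 19.3 and 18.9 FPKM in Sham, 19.3, 18.6 and 17.3 in H/R, and 17.1, 19.5 and 18.9 in EGR1OV. All 3 groups overlapped, and no comparison passed the test. The differences were -0.08 in H/R (95% interval -0.20 to 0.05) and -0.07 in EGR1OV (95% interval -0.19 to 0.06). Its exons overlap those of Dvl2 on the other strand over 1151 bases, and whether reads were counted by strand is not stated, so reads of the pair may be mixed. Dvl2 was at 3.57 to 4.799 FPKM. In EGR1OV it was higher by 0.18 against Sham (limma adjusted p 0.00662) and by 0.27 against H/R (limma adjusted p 0.000705). After H/R it changed by -0.08 (limma adjusted p 0.253), and its part in the Acadvl values was not tested.

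Acadl (ENSMUSG00000026003, chromosome 1 from 66830839 to 66863277, minus strand), the long-chain enzyme, was at 82.5, 84.9 and 85.7 FPKM in Sham, 81.1, 76.5 and 80.2 in H/R, and 88.7, 86.4 and 92.4 in EGR1OV. The groups did not overlap, with H/R lowest and EGR1OV highest, as for Cpt1a. EGR1OV exceeded H/R by 0.17 (SE 0.033, limma adjusted p 0.00243), a ratio of means of 1.12. The differences from Sham did not pass, at -0.09 in H/R (limma adjusted p 0.12) and 0.08 in EGR1OV (limma adjusted p 0.0837).

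Acadm (ENSMUSG00000062908, chromosome 3 from 153922357 to 153944632, minus strand), the medium-chain enzyme, took another course. It was at 9.54, 10.3 and 10.3 FPKM in Sham, 8.43, 8.67 and 8.93 in H/R, and 7.63, 7.96 and 7.67 in EGR1OV. The 3 groups did not overlap, with Sham highest and EGR1OV lowest. In EGR1OV the change from Sham was -0.34 (SE 0.041, limma adjusted p 0.000126) and the mean was 0.771 of that in Sham, just short of the 1.3-fold threshold, which it passed after quantile normalization (-0.44). After H/R the change was -0.19 (SE 0.041, limma adjusted p 0.0186). Without 1 of Sham replicates 2 and 3 or H/R replicates 1 and 2 that adjusted p was 0.0519 to 0.0662. EGR1OV lay below H/R by a log2 difference of -0.15 (SE 0.041, limma adjusted p 0.0145).

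Hadha and Hadhb encode the alpha and beta subunits of the mitochondrial trifunctional protein, which completes the cycle for long chains. Hadha (ENSMUSG00000025745, chromosome 5 from 30118304 to 30155162, minus strand) carries the hydratase and the second dehydrogenase, and Hadhb (ENSMUSG00000059447, chromosome 5 from 30155248 to 30184593, plus strand) carries the thiolase. Hadha was at 13.9, 14.2 and 13.6 FPKM in Sham, 13.7, 13.9 and 13.7 in H/R, and 14.6, 14.7 and 14.7 in EGR1OV. Hadhb was at 7.79, 8.56 and 8.67 FPKM in Sham, 8.03, 8.49 and 8.14 in H/R, and 6.91, 6.89 and 6.77 in EGR1OV. Sham and H/R overlapped for both genes, whereas the EGR1OV libraries lay above all others for Hadha and below all others for Hadhb. Hadhb changed by -0.25 in EGR1OV against Sham (SE 0.044, limma adjusted p 0.00138) and by -0.23 against H/R (SE 0.044, limma adjusted p 0.00186), both short of 1.3-fold. For Hadha the differences were 0.07 (SE 0.027, limma adjusted p 0.0564) and 0.09 (SE 0.027, limma adjusted p 0.0275), and after quantile normalization both were negative, at -0.03 and -0.05. After H/R the changes were -0.01 in Hadha and -0.02 in Hadhb, with 95% intervals of -0.07 to 0.05 and -0.12 to 0.08. The exons of Hadha overlap those of Garem2 on the other strand over 75 bases, and Garem2 was at or under 0.443 FPKM.

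Ratios of members within a library do not change when all its values are multiplied by 1 factor, as in median-ratio scaling, though they can under quantile normalization, and 3 pairs were chosen after their values were seen. The ratio of Hadha to Hadhb FPKM was 1.78, 1.66 and 1.57 in Sham, 1.71, 1.64 and 1.68 in H/R, and 2.11, 2.13 and 2.18 in EGR1OV. The 3 EGR1OV libraries lay above all 6 others in this ratio. Acadl to Acadm was 8.39 ± 0.228 in Sham, 9.14 ± 0.429 after H/R, and reached 11.5 ± 0.604 in EGR1OV (SD, n = 3 each). Cpt1a to Acadm was 1.06 ± 0.0627, 0.935 ± 0.0564 and 1.48 ± 0.0356 (SD, n = 3 each). EGR1OV did not overlap the other groups in any of the 3 ratios. An exact permutation test (two-sided) gave p = 0.1 for 8 of the 9 comparisons (0.113 after Benjamini-Hochberg adjustment over the 9) and 1 for Hadha to Hadhb between H/R and Sham, and 0.1 is the smallest this design allows.

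**Figure D3:**
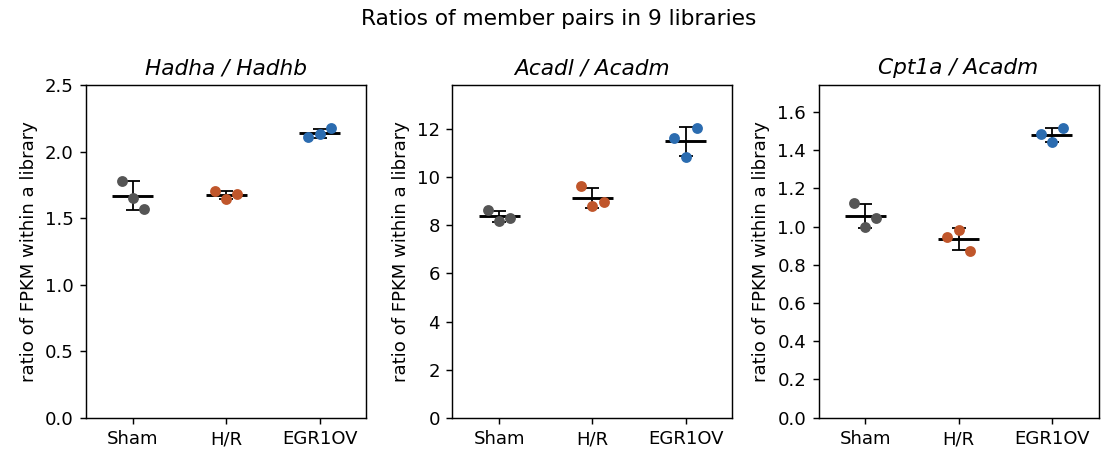
Ratio of FPKM of 2 members within each library (vertical axes, from 0) for Hadha to Hadhb, Acadl to Acadm and Cpt1a to Acadm; points are libraries, horizontal bars are means and error bars are SD (n = 3). The 3 EGR1OV libraries lie above the other 6 in each panel, between 2.11 and 2.18 for Hadha to Hadhb.

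Ehhadh (ENSMUSG00000022853, chromosome 16 from 21761287 to 21787844, minus strand), the bifunctional enzyme of peroxisomes and a textbook Ppara target, was low. It was at 1.23, 0.760 and 0.943 FPKM in Sham, 1.09, 1.26 and 1.01 in H/R, and 1.297, 1.22 and 1.59 in EGR1OV, which are 40 to 81 reads. The groups overlapped. The means were 0.978 ± 0.236, 1.12 ± 0.130 and 1.37 ± 0.199 FPKM (SD, n = 3 each), and no difference passed the test. In EGR1OV against Sham the difference was 0.26 (SE 0.103, limma adjusted p 0.0621). With limma voom on the recovered reads, an analysis added after seeing the data, Ehhadh was called at a log2 difference of 0.51 in reads (limma adjusted p 0.0318).

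Other genes of the pathway were described by lists, with no test of a list. Over all genes tested, 9.87% were called higher and 6.51% lower in EGR1OV against Sham, and 1.6% and 2.65% after H/R. In EGR1OV against H/R these shares were 11.9% and 6.94%. Mitochondrial beta-oxidation held 17 further genes, of which 16 were tested and 0 were called in any comparison as deposited, while Etfb was below the filter. With the other scalings 1 was called lower in EGR1OV, Acadsb, at -0.42 against Sham after quantile normalization and at -0.42 and -0.49 against H/R after median-ratio scaling and quantile normalization. By limma adjusted p alone 0 passed after H/R, against 4.15% of all genes higher and 7.54% lower. In EGR1OV against Sham 3 of the 16 were higher and 3 lower, against 26.1% and 19.8% of all genes. The 3 higher were Eci1, an enoyl-CoA isomerase (20.6 to 24.8 FPKM, 0.25), Acad8 (6.33 to 7.53 FPKM, 0.22) and Acads, the short-chain dehydrogenase (21.9 to 25.0 FPKM, 0.18). The lower ones were Acadsb (9.58 to 7.45 FPKM, -0.33), Hadh, the dehydrogenase of shorter chains (11.1 to 9.13 FPKM, -0.25), and Etfdh, which passes electrons to ubiquinone (9.51 to 7.92 FPKM, -0.24). After H/R 15 of the 16 had a negative change with a median of -0.07, and 12 or 13 of 16 after the other scalings, against the median of -0.03 over all genes.

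The carnitine shuttle list held 11 further genes, and 8 were tested. After H/R all 8 had a negative change with a median of -0.10, and 0 were called. By limma adjusted p alone 7.54% of all genes were lower, and 3 of the 8 passed. These were Cpt1c, a neuronal relative of Cpt1a (4.91 to 3.95 FPKM, -0.25), Crot, the peroxisomal octanoyltransferase (8.89 to 7.62 FPKM, -0.20), and Slc25a20, the carnitine-acylcarnitine carrier (7.54 to 6.71 FPKM, -0.15). With median-ratio scaling or quantile normalization 5 of the 8 had a negative change. In EGR1OV against H/R 1 of the 8 was called, Cpt1c, at 5.78, 6.65 and 5.90 against 4.04, 4.02 and 3.80 FPKM (0.52, limma adjusted p 9.32e-05). Cpt1b, the muscle form, stayed at or under 0.0851 FPKM, so Cpt1a was the most abundant Cpt1 form in every library.

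Peroxisomal beta-oxidation genes changed in both directions. Of 14 tested genes 3 were called higher and 1 lower in EGR1OV against Sham. Acaa1a, the peroxisomal thiolase, was at 11.2, 10.9 and 10.5 FPKM in Sham and 15.9, 16.4 and 15.5 in EGR1OV (0.51, limma adjusted p 2.71e-06). Phyh, which starts the alpha-oxidation of phytanic acid, rose from 6.95 to 9.95 FPKM (0.46), a change under 1.3-fold after quantile normalization (0.36), and Acox2, an oxidase of branched chains and bile acid precursors, rose from 0.305 to 1.33 FPKM (0.83). With means of 0.305 FPKM in Sham and 0.526 in H/R, Acox2 passed the filter of 0.5 FPKM only through its EGR1OV libraries. Its calls against Sham and against H/R were thus partly fixed by the filter. Hsd17b4, which catalyses the same steps as Ehhadh on other substrates, was at 36.7, 38.1 and 37.0 FPKM in Sham and 24.9, 26.5 and 27.2 in EGR1OV (-0.49, limma adjusted p 4.04e-06). After H/R 2 were called lower, among them Decr2 (10.1 to 8.22 FPKM, -0.27), which was under 1.2-fold after the other scalings. Against H/R 4 of 14 were called higher in EGR1OV and 0 lower. Among these were Acaa1a, Acox2 and the thioesterase Acot8, with changes of 0.57, 0.61 and 0.45. Acot8 was under 1.3-fold after quantile normalization (0.34), and with either other scaling Hsd17b4 was called lower than in H/R (-0.42 and -0.45).

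Among 8 tested regulators 0 were called in EGR1OV or H/R against Sham, and 3 were called higher in EGR1OV than in H/R, with 0 lower. Rxra, a partner of Ppara, was at 11.99, 11.8 and 11.6 FPKM in EGR1OV and 8.45, 8.27 and 8.11 in H/R (0.47, limma adjusted p 4.05e-06). Rxrb rose from 7.43 to 10.9 FPKM (0.50) and Ppard, the widely expressed relative of Ppara, from 4.52 to 6.22 (0.38). After quantile normalization none of these 3 reached 1.3-fold (0.27 to 0.36). By limma adjusted p alone 5 of the 8 were higher and 1 lower in EGR1OV against Sham, against 26.1% and 19.8% of all genes. Among the higher were Esrra (18.95 to 23.1 FPKM, 0.27) and Pprc1 (10.6 to 12.9 FPKM, 0.26), and the lower was Nrip1 (10.2 to 9.11 FPKM, -0.15). The list median there was 0.21, and 0.11 after quantile normalization. Of the other regulators Hnf4a was at or under 0.0338, Ppargc1a at or under 0.279 and Esrrg at or under 0.118 FPKM in every library.

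Textbook Ppara targets and ketone body genes numbered 20, of which 11 were tested. In EGR1OV 3 were called higher than in Sham and 0 lower, but after quantile normalization 2 were higher and 3 lower (Acat1, Pdk4 and Ucp2, at -0.41, -0.40 and -0.42). Vnn1, a pantetheinase, showed the largest change, from 2.27, 2.21 and 1.61 FPKM in Sham to 15.7, 15.7 and 16.8 in EGR1OV (2.51, limma adjusted p 8.07e-08). The thioesterases Acot1 (1.03 to 1.99 FPKM, 0.56) and Acot2 (3.16 to 4.44 FPKM, 0.39) were also called, and Acot2 was under 1.3-fold with either other scaling. After H/R Angptl4, an inhibitor of lipoprotein lipase that hypoxia also induces, was at 9.37, 8.76 and 8.63 FPKM against 5.46, 6.09 and 6.07 in Sham (0.53, limma adjusted p 0.00171), and Acot2 was called lower (-0.28), a call lost with the other scalings, which called Pdk4 higher instead (0.33 and 0.34). Against H/R 3 were called higher in EGR1OV (Vnn1, Acot1 and Acot2) and 3 lower, namely Pdk4, a brake on glucose oxidation (4.55 to 2.59 FPKM, -0.63), Ucp2 (13.3 to 9.69 FPKM, -0.42) and Angptl4 (8.92 to 6.21 FPKM, -0.46). With either other scaling Acat1 was also called lower (-0.41 and -0.47). The defining targets Cyp4a10 and Cyp4a14 stayed at or under 0.0217 FPKM.

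**Figure D4:**
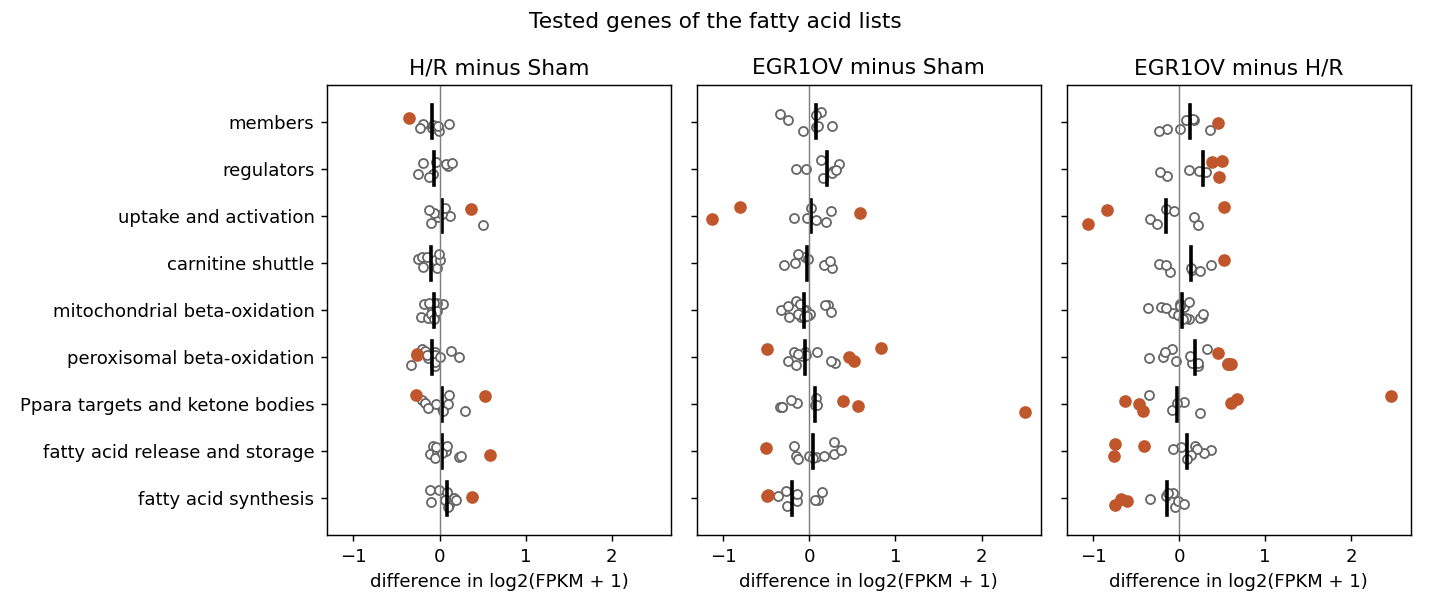
Difference in log2(FPKM + 1) (horizontal axes) of each tested gene of the members and 8 related lists, in 3 comparisons; filled orange points are called genes, open points are not, and black bars are list medians. Vnn1 stands at 2.51 in EGR1OV against Sham, and 0 of the 16 mitochondrial genes are called in any comparison as deposited.

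Genes of uptake and activation numbered 16, of which 9 were tested. In EGR1OV against Sham Slc27a1, a fatty acid transport protein, was called higher (3.86 to 6.29 FPKM, 0.58), and Fabp5, a fatty acid binding protein (7.86 to 3.06 FPKM, -1.13), and Cd36, the scavenger receptor (1.12 to 0.213 FPKM, -0.81), were called lower. Slc27a1, Fabp5 and Cd36 were called in the same directions against H/R. Macrophages are known to express Fabp5 and Cd36, and these genes fell together with the leukocyte markers, whose part was not tested. After H/R Acsl4, an acyl-CoA synthetase for arachidonic acid, was called higher (21.9 to 28.4 FPKM, 0.36) and 0 were called lower. Acsl4 was called lower in EGR1OV than in H/R with either other scaling (-0.40 and -0.44). Slc27a2, which is typical of the proximal tubule and the liver, stayed at or under 0.0458 FPKM, and Fabp1, which is typical of the liver, at or under 0.492.

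Genes that followed each member most closely were taken from 7216 genes, by Pearson r of log2(FPKM + 1) over the 9 libraries. These points share libraries, depth and 3 groups, so r mainly follows the group levels and is a description. For Cpt1a they were Aaas (0.992) and Fam129a (0.988), and for Cpt2 Osbpl11 (0.961) and Abhd16a (0.951). For Acadm they were Dcun1d4 (0.982) and Ntn4 (0.980), for Acadl Psmd10 was among them (0.965), and for Acadvl Oma1 and Ndufa3 (both 0.869). For Hadha they were Tprn (0.987) and Gga1 (0.986), for Hadhb Fcer1g (0.981), which encodes a receptor chain of leukocytes, and Alg10b (0.981), and for Ehhadh Imp4 (0.937) and Utp15 (0.928). Other members were left out of this search.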

How the data were processed

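Mouse primary renal tubular epithelial cells gave 9 RNA libraries, 3 each of Sham, H/R and EGR1OV by their titles, sequenced on an Illumina NovaSeq. The authors deposited 1 table of FPKM with each library in its own column. The submitters' processing notes name Bowtie2 2.2.3, HISAT2 2.1.0, TopHat2 and mm9, with no role or order, and the counter is not given in the sources used here. Gene positions were instead those of GRCm38, as 94.7% equalled GENCODE M21, so coordinates are GRCm38 as in the table. Low FPKM values were multiples of 1 read, and with M21 exon lengths 94% of 162933 low values were whole within 0.02, which gave the depths. Cpt1a and Ehhadh did not match M21, and the shortest lengths that made all their reads whole were used (4300 and 3018 bases). Floors (3 reads) cover counting error only.

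The tested scale was log2(FPKM + 1), on which changes of low genes are understated, and 13985 genes whose mean reached 0.5 FPKM were kept. A single limma fit of all 9 libraries (version 3.58.1, R 4.3.3, eBayes with trend) gave two-sided p-values with Benjamini-Hochberg adjustment. The fold thresholds against Sham are those of the study, and that of EGR1OV against H/R was chosen here. Replicate pairs differed by more than counting noise (chi-square per degree of freedom 2.07 or more). Members and gene lists were chosen with earlier results of these data known. Members were all named, and of each list the called genes with the largest change, at most 3 per direction with at least 1 FPKM; genes that passed adjusted p alone were named beyond this rule after their values were seen. A few genes picked by these rules are not reported here. Of 192 listed symbols, 5 were not analysed here. The code was tested on simulated data. Alternatives were another pseudocount, filters, scalings, the replicate block, limma without trend, pairwise fits, no fold threshold and each library left out. Limma voom on the recovered reads and a Gm23935 covariate were added after seeing the data. Python 3.11.15 was used for the table and figures.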

Additional observations from a re-analysis of the deposited data

How the results depend on the processing

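The count of members called in EGR1OV against Sham was 0, and it was 1 after quantile normalization (Acadm), 1 with voom on the recovered reads (Ehhadh) and 3 with no fold threshold (Cpt1a, Acadm and Hadhb). For H/R against Sham the count of 1 became 2 with no fold threshold, and leaving out each library in turn gave 1 to 2, with Cpt2 called without H/R replicate 2. For EGR1OV against H/R the count of 1 became 2 with a pseudocount of 0.1 or with voom, 0 after quantile normalization and 6 with no fold threshold. Leaving out each library gave 1 to 2, with Cpt2 called without H/R replicate 2 or EGR1OV replicate 3. The cause of these moves was not tested, other than that no fold threshold admits smaller changes. Of 453 alternative values for single members 404 kept their direction and side of the threshold, 28 no longer passed, 6 newly passed and 15 changed sign. In EGR1OV against Sham quantile normalization turned Cpt1a to -0.00563 and Hadha to -0.0342. In H/R against Sham Hadha was 0.0247 after median-ratio scaling, 0.0154 after quantile normalization and -0.0253 to 0.000362 with a library left out, and Hadhb was 0.0177, 0.0201 and -0.061 to 0.00776. In EGR1OV against H/R Acadvl was -0.0535, -0.107 and -0.034 to 0.0617, and -0.0144 with the Gm23935 covariate, and Hadha was -0.0497 after quantile normalization. None of the values with a changed sign had an adjusted p under 0.05. Over all genes H/R against Sham gave 594 calls, 1001 with voom and 1635 with no fold threshold, and the counts for EGR1OV were 2291 and 6417 against Sham and 2641 and 7135 against H/R with and without the fold threshold. With the replicate block members called stayed at 0, 1 and 1 (EGR1OV against Sham, H/R against Sham, EGR1OV against H/R), and calls over all genes were 2309, 516 and 2654. The limma adjusted p of Cpt1a in EGR1OV against Sham was then 0.0863. Deviations of same-numbered libraries correlated at -0.195 to 0.263 across genes, and 3 of 9 libraries were closest to a library of their own number. These values gave no sign that the numbers pair the samples, but 3 libraries per group are too few to settle it. Depth limits Ppara, at 0 to 7 reads, and Ehhadh, at 40 to 81.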

Other observations

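Genes of fatty acid synthesis, the opposite process, were measured as a list of 13, of which 10 were tested. Scd2, a desaturase, was called higher after H/R (69.9 to 91.1 FPKM, 0.38 on the log2(FPKM + 1) scale, limma adjusted p 0.000231), and 0 were called lower. In EGR1OV against Sham Fasn, the fatty acid synthase, fell from 28.8 to 20.3 FPKM (-0.48, limma adjusted p 3.17e-06) and Elovl6, an elongase, from 3.25 to 2.02 FPKM (-0.49). Against H/R Fasn, Elovl6 and Scd2 were called lower in EGR1OV, at -0.68, -0.60 and -0.74, and 9 of the 10 tested genes had a negative difference, or 10 of 10 with median-ratio scaling or quantile normalization. Acaca, whose product malonyl-CoA inhibits Cpt1a, had 4.29 FPKM in Sham, 4.09 after H/R and 3.32 in EGR1OV, and in EGR1OV it was lower by limma adjusted p alone (-0.29 against Sham). With either other scaling Scd2 was also called lower in EGR1OV than in Sham (-0.39 and -0.43) and Scd1 lower than in H/R (-0.39 and -0.46), and after quantile normalization Scd1 was lower than in Sham (-0.38).

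Of 11 tested genes of fatty acid release and storage, G0s2, an inhibitor of adipose triglyceride lipase, was called higher after H/R (1.09 to 2.15 FPKM, 0.59, limma adjusted p 0.00178). With either other scaling Mgll was called higher after H/R too (0.28 and 0.29). Mgll, the monoacylglycerol lipase, was called lower in EGR1OV against Sham (4.17 to 2.64 FPKM, -0.50). Against H/R G0s2 (-0.75), Mgll (-0.75) and Lpl (-0.41) were called lower in EGR1OV, and Lpl was at 0.314 FPKM there. With 0.491 FPKM in Sham and 0.749 in H/R, Lpl passed the filter of 0.5 FPKM only through its H/R libraries, so its call was partly fixed by the filter. Among marker lists for other cells, the summed level of 8 fibroblast and contractile markers was 2907 to 3021 FPKM in Sham and 1144 to 1213 in EGR1OV, nearly all of it Acta2. Of the 5 tested, Acta2 was called lower and Col1a2 higher (7.22 to 10.2 FPKM, 0.45), and the median change was 0.115. The call of Col1a2 was lost after quantile normalization (0.35). The summed level of 7 endothelial markers was 16.4 to 17.0 FPKM in Sham and 13.3 to 14.3 in EGR1OV. That of the proximal tubule markers with a row was 42.0 to 43.5 and 41.8 to 44.1, and of the 4 tested 3 were called lower and 0 higher.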
